A study of Mus musculus with 8 samples.

Results

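The 7 genes described here are chemokine receptors with a known place in the biology of myeloid cells and their progenitors: Ccr1, Ccr2, Ccr7, Cx3cr1, Cxcr2, Cxcr3 and Cxcr4. They were taken by symbol from the table of gene counts of common dendritic cell progenitors (CDPs), matched to the GENCODE vM21 annotation of GRCm38, and all 7 were among its 16119 genes. All 7 also passed the filter on low counts, with which 15837 genes were tested. CDPs are DC-restricted progenitors of the bone marrow (BM). For each library about 50000 of them were sorted as lineage-negative cells with intermediate c-kit, low Sca1, CD115 and Flt3 on the surface. The HFD group held 4 libraries from C57BL/6 mice with diet-induced obesity (DIO), fed 60 kcal% fat for 16 weeks. The CF group held 4 libraries from matched DIO-Control mice of the same strain on control chow with 10 kcal% fat. The study's methods name males of the C57BL/6J background, and no engineered allele is given for either group. The methods call the 4 preparations of a diet independent, and nothing says how many mice went into 1 library. The comparison asks whether an obesogenic diet changed the receptor genes of these progenitors.

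Chemokines are small secreted proteins that guide cells along a gradient. Their receptors cross the membrane with several helices, couple to inhibitory G proteins, and are switched off by receptor kinases, arrestins and RGS proteins. Cxcr4 binds Cxcl12, the stromal chemokine that holds haematopoietic progenitors and immature leukocytes in the marrow. Cxcr2 binds ELR-type CXC chemokines and brings mature neutrophils out of the marrow and into tissue. Ccr1 binds Ccl3, Ccl5, Ccl6 and Ccl9, and Ccr2 binds Ccl2 and lets monocytes leave the marrow. Cx3cr1 is the receptor for fractalkine and marks monocytes and their precursors. Ccr7 leads mature DCs to the lymph node, and Cxcr3 binds Cxcl9 and Cxcl10 on activated T cells, NK cells and plasmacytoid DCs.

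RefSeq (GRCm38.p6) gave a promoter for 6 of the 7 genes, all except Ccr7, and the 250 bases before the annotated start are used here. The windows of Ccr1 and Cxcr2 are shown because these 2 genes went up and down together across the libraries, and that of Cxcr4 because it had the highest level and the smallest spread of the 7. Each is written 5′ to 3′ on the strand of the gene, and capitals mark the 6-letter matches described after the sequences.
Ccr1 (chr9:123968693-123968942, minus strand): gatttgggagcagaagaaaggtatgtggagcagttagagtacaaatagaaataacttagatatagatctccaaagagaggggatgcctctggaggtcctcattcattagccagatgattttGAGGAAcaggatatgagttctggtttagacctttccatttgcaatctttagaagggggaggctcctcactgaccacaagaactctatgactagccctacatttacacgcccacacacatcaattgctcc
Cxcr2 (chr1:74153744-74153993, plus strand): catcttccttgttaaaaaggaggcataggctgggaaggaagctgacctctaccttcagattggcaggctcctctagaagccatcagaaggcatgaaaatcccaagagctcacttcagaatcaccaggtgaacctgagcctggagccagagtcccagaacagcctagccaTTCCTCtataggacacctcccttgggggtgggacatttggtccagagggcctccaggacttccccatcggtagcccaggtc
Cxcr4 (chr1:128592300-128592549, minus strand): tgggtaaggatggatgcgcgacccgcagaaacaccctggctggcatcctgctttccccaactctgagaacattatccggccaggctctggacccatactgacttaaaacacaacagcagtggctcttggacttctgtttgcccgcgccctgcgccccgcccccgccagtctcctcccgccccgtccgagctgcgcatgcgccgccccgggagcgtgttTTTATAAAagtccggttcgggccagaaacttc
The GC content was 43.6% for Ccr1, 54.4% for Cxcr2 and 61.2% for Cxcr4, against a median of 52.4% over 32851 promoters. The Cxcr4 window held 19 CpG, those of Ccr1 and Cxcr2 1 each. Both strands were searched for 5 sets of letters, namely GAGGAA (a core of PU.1 sites), TTNNGCAA (C/EBP), TGANTCA (AP-1), 2 copies of GAAA with 2 bases between them (IRF) and TATAAA, the letters of a TATA box. Ccr1 held GAGGAA 129 to 124 bases before the start, and Cxcr2 held it on the other strand 81 to 76 bases before the start. These letters are in 23.3% of all windows of this length, so a match is a description and not a site. Cxcr4 held TATAAA 30 to 25 bases before the start, where a TATA box lies in textbook promoters, and an overlapping match on the other strand. TATAAA was in 12.4% of all windows. The letters for C/EBP, AP-1 and IRF, which were in 9.56%, 6.75% and 2.98% of the windows, were in none of the 3 shown.

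The 8 libraries held 28203651 to 48409689 counts each, and the counts of a receptor gene ran from 50 (Cxcr3) to 7556 (Cxcr4) in a library. Levels are given as CPM, a library's counts scaled by its TMM-adjusted total. Of the genes of the sort markers, Kit, Csf1r (CD115) and Flt3 were found in every library, and Ly6a (Sca1) was low at 1.37 to 3.25 CPM. Flt3 was at 88.8 CPM in HFD 1, against 235 to 378 in the other HFD libraries and 227 to 316 in CF. HFD 1 stood apart in cell type markers as well. The summed CPM of 17 neutrophil genes, of which S100a9 had the most counts, was 21800, 4000, 1530 and 1170 in HFD 1 to 4 and 2280, 7280, 6830 and 6480 in CF 1 to 4. All 17 were highest in HFD 1 and 16 were lowest in HFD 4. All 12 erythroid genes were also highest in HFD 1, with a sum of 771 CPM against 110 to 180 in the other 7 libraries. Of the lymphoid lists, 12 B cell genes, Ighm with the most counts, summed to 1330 CPM in HFD 1, 487 to 676 in the other HFD libraries and 336 to 572 in CF. The 10 T and NK cell genes in the table summed to 63.1 to 121 CPM in HFD against 59.5 to 73.9 in CF, with the most counts in Il7r, which progenitors also express, while Cd3e was at 0 in 2 libraries and at 1.67 CPM or less in the others. CF 1 was the CF library with the lowest neutrophil sum. It also had the lowest share of counts in protein-coding genes, at 28.3% against 33.9 to 42.0% in the other libraries. Its total was the highest and its TMM factor the lowest (0.80). In a bulk library, fewer cells of a type and less RNA per cell cannot be told apart. Log2 fold changes of the 7 receptor genes that rest on HFD 1 or CF 1 are given with and without them. Levels per length are given with all 8 libraries.

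In the fit with diet as the only term and all 8 libraries, none of the 7 receptor genes passed the test for a difference. With edgeR's quasi-likelihood test, adjusted over all 15837 genes, 0 of 7 were called, where 67 genes or 0.423% were called in all, every one of them lower in HFD. No receptor gene had an unadjusted p below 0.05 either (8.56% of all genes had), and in none were the libraries of the 2 diets apart (6.16% of all genes). DESeq2 also called 0 of 7, with 3.58% of all genes called (64 higher and 503 lower in HFD). The log2 fold changes of HFD against CF were above zero for 2 and below zero for 5, with a median of -0.12, against 0.06 for all genes tested. What set the 7 genes apart from each other was the spread between libraries of 1 diet. The SD of log2 CPM within a diet was 0.17 for Cxcr4, 0.23 for Cxcr3, 0.40 for Ccr2, 0.61 for Ccr7, 1.03 for Cx3cr1, 1.25 for Ccr1 and 1.53 for Cxcr2. The median over 11775 protein-coding genes was 0.27 and the 95th percentile 1.14, so that Ccr1 and Cxcr2 were among the most variable genes, and Cxcr4 and Cxcr3 varied less than the typical gene.

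**Figure D1:**
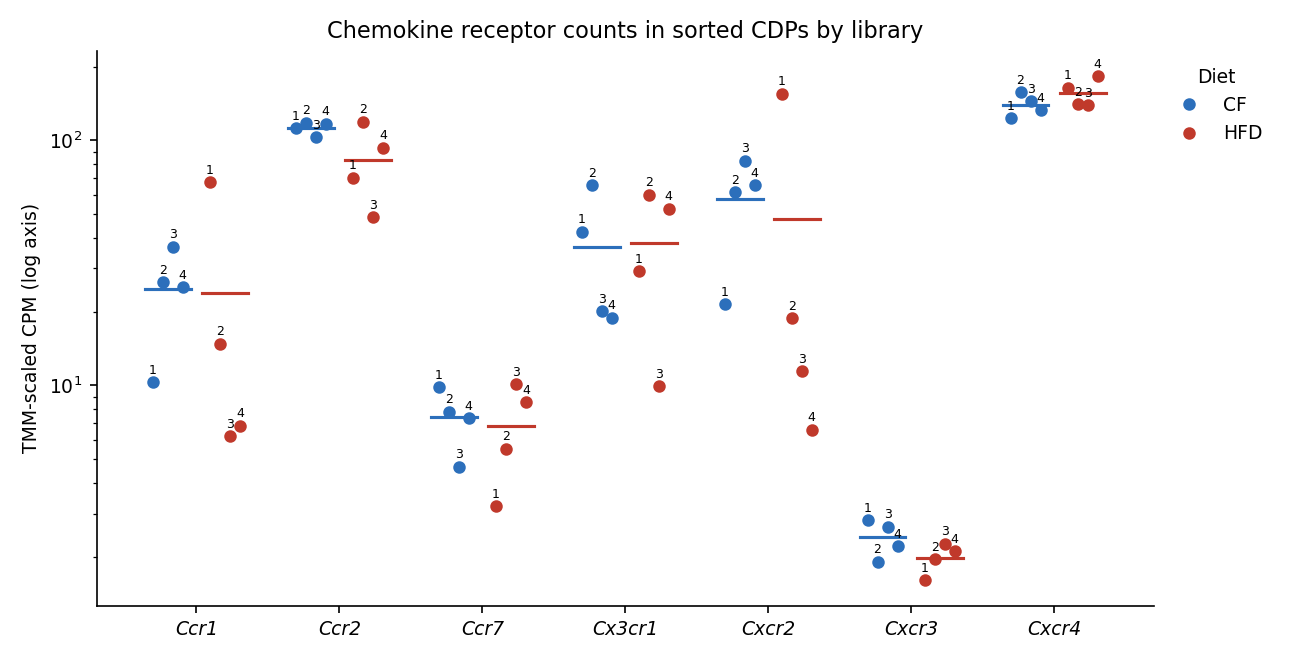
TMM-scaled CPM (log axis) of each receptor gene in each of the 8 libraries. Points are single libraries with their replicate number, blue for CF and red for HFD, and the short lines are the means of 4. Cxcr2 and Ccr1 were spread over 23.5-fold and 10.9-fold ranges with HFD 1 on top, and Cxcr4 stayed within 1.49-fold.

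Levels of different genes were compared per length, as CPM per kb of merged exons (RPKM). Cxcr4 was the leading receptor gene by far, at 81.8 ± 10.7 RPKM (SD, n = 8), and it was the highest of the 7 in every library. This level was above 98.7% of 11913 protein-coding genes. Cxcr2 followed at 17.4 ± 16.5 and Ccr2 at 14.4 ± 3.81. The order of these 2 was not fixed, since Cxcr2 was above Ccr2 in 4 of 8 libraries. Ccr1 at 8.56 ± 7.25 and Cx3cr1 at 8.28 ± 4.60 did not differ beyond their spread either, Ccr1 being above Cx3cr1 in 3 of 8. Ccr2 was above Ccr1 in 7 of 8, and Cx3cr1 above Ccr7 in 7 of 8, with ranges that overlapped. Ccr7 was at 3.60 ± 1.25 and Cxcr3 last at 1.26 ± 0.228, lower than Ccr7 in all 8 libraries although their ranges touched. Taking the longest transcript as length, or scaling by library size alone, left the order of the 7 means as it was. Both checks keep HFD 1, the highest library for Cxcr2 (51.0 RPKM) and Ccr1 (23.8 RPKM). The order of the means without HFD 1 was not computed, so the places of these 2 genes may rest on that library.

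**Figure D2:**
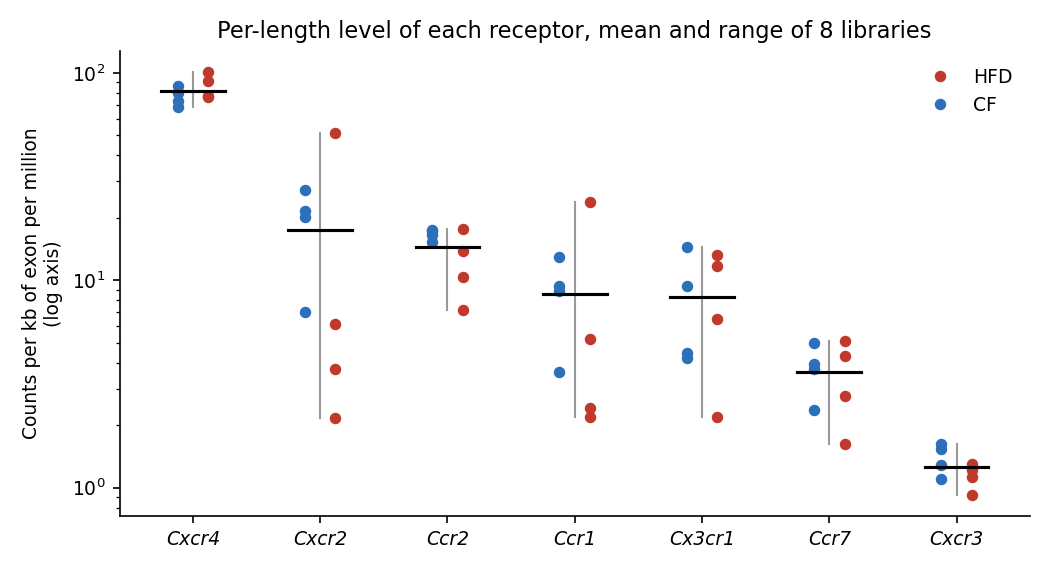
RPKM, CPM per kb of exon (log axis), of each receptor gene, ordered by the mean of 8 libraries. Points are libraries (blue CF, red HFD), the thick line is the mean and the thin line the range. Cxcr4 lies between 68.1 and 101 with no overlap to the next gene, while the ranges of neighbours among the other 6 overlap.

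Cxcr4, the receptor for marrow retention (chr1:128588199-128592293, minus strand), was at 164, 140, 139 and 183 CPM in HFD 1 to 4 and at 123, 157, 144 and 133 in CF 1 to 4. The highest library was HFD 4 and the lowest CF 1, and the groups overlapped. The means were 157 ± 21.3 in HFD and 139 ± 14.5 in CF (SD, n = 4). The log2 fold change was 0.17 (SE 0.13, 95% interval -0.12 to 0.47), with an edgeR adjusted p of 0.82, and an exact two-sided permutation test on the CPM gave p = 0.23. Each value rested on 4462 to 7556 counts. The SE was the smallest of the 7, and the interval leaves out a change of 1 log2 unit in either direction. Cxcr4 kept its sign in all 27 alternative settings, with values of 0.05 to 0.36.

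Ccr2, the receptor that brings monocytes out of the marrow (chr9:124101950-124113557, plus strand), was at 70.3, 119, 48.6 and 93.3 CPM in HFD 1 to 4. In CF 1 to 4 it was at 112, 118, 103 and 117 CPM. The CF libraries lay close together, and 3 of 4 HFD libraries were below the lowest of them, while HFD 2 was above the highest. The SD of log2 CPM was 0.55 in HFD and 0.09 in CF. The means were 82.8 ± 30.2 and 113 ± 6.71 (SD, n = 4), with a log2 fold change of -0.44 (SE 0.24, 95% interval -0.99 to 0.10). The edgeR adjusted p was 0.73, and the exact permutation test gave p = 0.14. The sign was the same in all 27 alternative settings, from -0.68 to -0.14. The summed CPM of 15 monocyte genes was 954 to 2820 in HFD against 1160 to 1910 in CF. In HFD 1, 1710 of the 2820 CPM were counts of Lyz2, which neutrophils also express. Whether monocytes in the samples bear on Ccr2 was not tested.

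Cx3cr1, the fractalkine receptor (chr9:119901616-120069879, minus strand), was at 29.3, 60.0, 9.92 and 52.6 CPM in HFD 1 to 4 and at 42.4, 65.4, 20.1 and 18.9 in CF 1 to 4. Within each diet 1 library was more than 3 times as high as another, and the diets covered nearly the same range. The means were 37.9 ± 22.8 and 36.7 ± 22.0 CPM (SD, n = 4), with a log2 fold change of 0.05 (SE 0.58, 95% interval -1.28 to 1.37, edgeR adjusted p = 0.99). The exact permutation p was 0.91. The sign turned when HFD 2 (-0.26), HFD 4 (-0.19), CF 3 (-0.15) or CF 4 (-0.17) was left out. The gene model is long, spans several other genes on both strands and shares 78 bases of exon (1.73%) with Gm33858 on the opposite strand, and the sources used here do not say whether the counts used strand.

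Ccr7, the lymph node homing receptor (chr11:99144196-99155077, minus strand), was at 3.21, 5.51, 10.1 and 8.54 CPM in HFD 1 to 4 and at 9.82, 7.82, 4.66 and 7.36 in CF 1 to 4. HFD 1 was the lowest library and HFD 3 the highest, so that 1 diet spanned the other. The means were 6.84 ± 3.08 and 7.41 ± 2.12 (SD, n = 4), with a log2 fold change of -0.12 (SE 0.36, 95% interval -0.93 to 0.70), an edgeR adjusted p of 0.97 and an exact permutation p of 0.80. The sign turned without HFD 1 (0.12) or CF 1 (0.05). Cxcr3 (chrX:101731535-101734269, minus strand) was at 1.60, 1.95, 2.26 and 2.11 CPM in HFD 1 to 4 and at 2.82, 1.91, 2.65 and 2.21 in CF 1 to 4, from 50 to 109 counts. At this depth the means of 1.98 ± 0.28 and 2.39 ± 0.413 (SD, n = 4) overlapped in their libraries. The log2 fold change was -0.27 (SE 0.21, 95% interval -0.75 to 0.20, edgeR adjusted p = 0.83, exact permutation p = 0.20). It was -0.18 without HFD 1 and also without CF 1, -0.10 without both, and -0.06 with library size alone.

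Cxcr2 and Ccr1 followed neutrophil genes across the libraries. The pattern was not confined to neutrophil genes. Of 8 mast cell and basophil genes, 7 were highest in HFD 1 and 7 were lowest in HFD 4. Cxcr2 (chr1:74153989-74161246, plus strand) was at 155, 18.8, 11.4 and 6.60 CPM in HFD 1 to 4 and at 21.4, 61.6, 82.7 and 65.8 in CF 1 to 4. HFD 1 was above every CF library and the other 3 HFD libraries were below every one. The means were 48.0 ± 71.7 and 57.9 ± 26.0 (SD, n = 4), the log2 fold change was -0.27 (SE 0.94, 95% interval -2.43 to 1.88), the edgeR adjusted p 0.98 and the exact permutation p 0.91. The interval is the widest of the 7. The value was 0.06 without HFD 3, 0.04 without HFD 4 and -2.24 without HFD 1 (adjusted p = 0.10). Without HFD 1 and CF 1, the 3 remaining libraries had 12.3 ± 6.16 CPM in HFD and 70.1 ± 11.2 in CF (SD, n = 3), and the log2 fold change was -2.52 (SE 0.35, edgeR adjusted p = 0.017, where 2.45% of all genes were called). HFD 1 was the highest HFD library for Cxcr2 and CF 1 the lowest CF library, so leaving out this pair sets the direction, and the value is a description only.

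Ccr1 (chr9:123962124-123968692, minus strand) was at 67.6, 14.8, 6.19 and 6.84 CPM in HFD 1 to 4 and at 10.3, 26.4, 36.8 and 25.2 in CF 1 to 4. Here too HFD 1 was the highest of the 8 libraries and HFD 3 and HFD 4 the lowest. The means were 23.8 ± 29.4 and 24.7 ± 10.9 (SD, n = 4), the log2 fold change was -0.05 (SE 0.77, 95% interval -1.81 to 1.71), the edgeR adjusted p 1.0 and the exact permutation p 1.0. The value was above zero without HFD 2 (0.12), HFD 3 (0.27), HFD 4 (0.21) or CF 3 (0.21), and -1.42 without HFD 1 (adjusted p = 0.21). Without HFD 1 and CF 1, the means were 9.26 ± 4.77 in HFD and 29.5 ± 6.41 in CF (SD, n = 3), and the log2 fold change was -1.67 (SE 0.34, edgeR adjusted p = 0.049). For Ccr1 too these were the highest HFD and the lowest CF library, which sets the direction of this value. No receptor gene was called when 1 library alone was left out, for any of the 8.

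Across the 8 libraries, the log2 CPM of Ccr1 and Cxcr2 had a Pearson r of 0.97 (Spearman rho 0.93), and 0.97 without the 2 libraries farthest from the median of Ccr1, HFD 1 and HFD 3. Ccr7 ran the other way, with r of -0.85 to Ccr1 and -0.72 to Cxcr2. Without the 2 libraries farthest from the median of Ccr7, CF 3 and HFD 1, its r to Cxcr2 was -0.29. Ccr2 and Cx3cr1 had an r of 0.67, which rested on HFD 1 and HFD 3 (0.07 without them). These are descriptions over 8 libraries that share each library's cell makeup and depth, out of 21 pairs.

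The plot of receptor against neutrophil counts uses 14 neutrophil genes, the list of 17 without Mpo, Elane and Prtn3, which granulocyte precursors also express. This shorter list and the ratios to it were chosen after seeing the data. Its sum was 20800, 3640, 1300 and 977 CPM in HFD 1 to 4 and 1980, 6660, 6180 and 6050 in CF 1 to 4. Cxcr2 went with this sum. Per 1000 CPM of the 14 genes, the CPM of Cxcr2 was 7.47, 5.17, 8.72 and 6.75 in HFD 1 to 4 and 10.8, 9.25, 13.4 and 10.9 in CF 1 to 4, and the diets did not overlap. For Ccr1 the same ratio was 3.25, 4.05, 4.75 and 7.00 in HFD and 5.18, 3.97, 5.96 and 4.16 in CF, which overlapped. The ratio was computed for these 2 genes only and was not tested. The share of all genes with diets apart in this ratio is therefore not known, and the values are a description. As a ratio of CPM, which takes no account of length, Cxcr2 was at 2.30, 1.28, 1.83 and 0.965 times the CPM of Ccr1 in HFD 1 to 4 and at 2.08, 2.33, 2.25 and 2.62 times in CF 1 to 4.

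**Figure D3:**
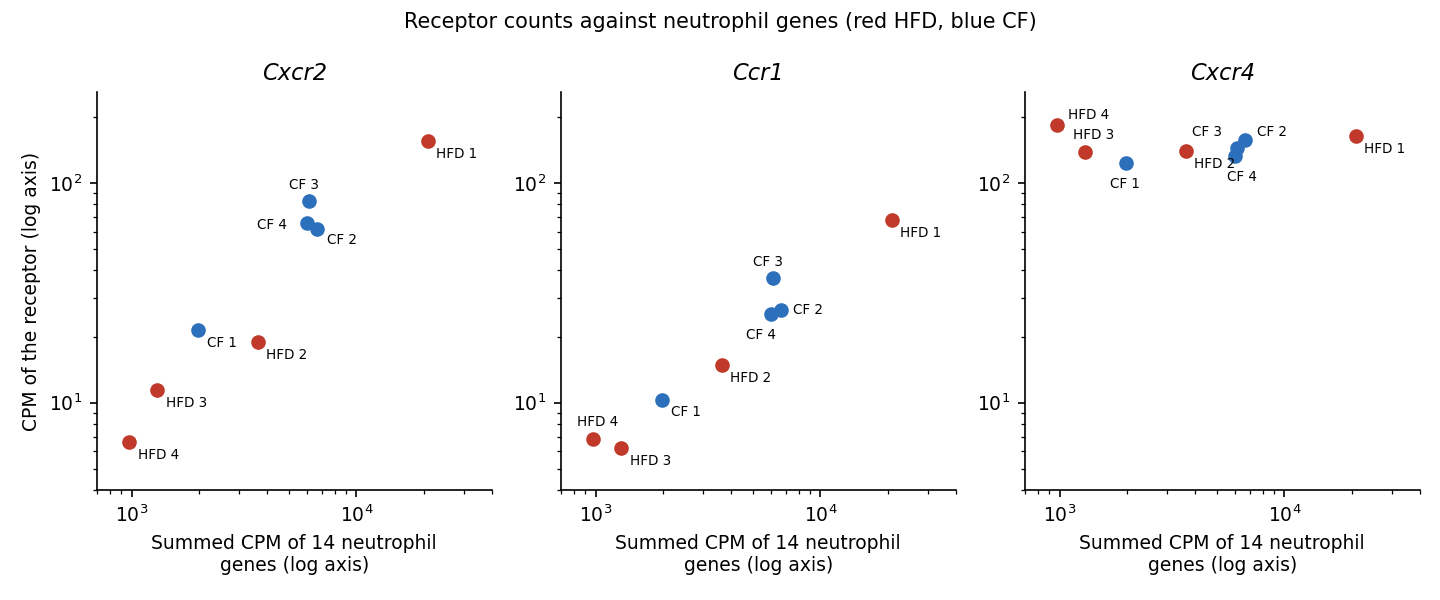
TMM-scaled CPM of Cxcr2, Ccr1 and Cxcr4 (vertical, log axis) against the summed CPM of 14 neutrophil genes (horizontal, log axis) in the 8 libraries, red for HFD and blue for CF. Cxcr2 and Ccr1 are low in the libraries with low neutrophil sums and highest in HFD 1, though not in strict order (Ccr1 is at 6.84 in HFD 4 and 6.19 in HFD 3, and Cxcr2 at 21.4 in CF 1 and 18.8 in HFD 2), while Cxcr4 is level.

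With the mean log2 CPM of the 17 neutrophil genes as a covariate, Cxcr2 was called lower in HFD, with a log2 fold change of -0.63 (SE 0.14, 95% interval -0.95 to -0.30, edgeR adjusted p = 0.041). In that fit 4.18% of all genes were called. The score of 14 genes gave -0.64 (adjusted p = 0.038). With the covariate and any 1 library left out, the value stayed between -0.74 and -0.53, the adjusted p ran from 0.014 to 0.26, and Cxcr2 was called in 1 of 8 cases, without HFD 3 (-0.73, adjusted p = 0.014). Ccr1 was not called with the covariate (-0.14, SE 0.15, adjusted p = 0.75), nor was any of the other 5. Ccr7 had a value of -0.44 (SE 0.19, 95% interval -0.87 to -0.01) with an adjusted p of 0.34. Whether cells of the neutrophil lineage in the sorted samples account for the spread of Cxcr2 and Ccr1 was not tested.

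**Figure D4:**
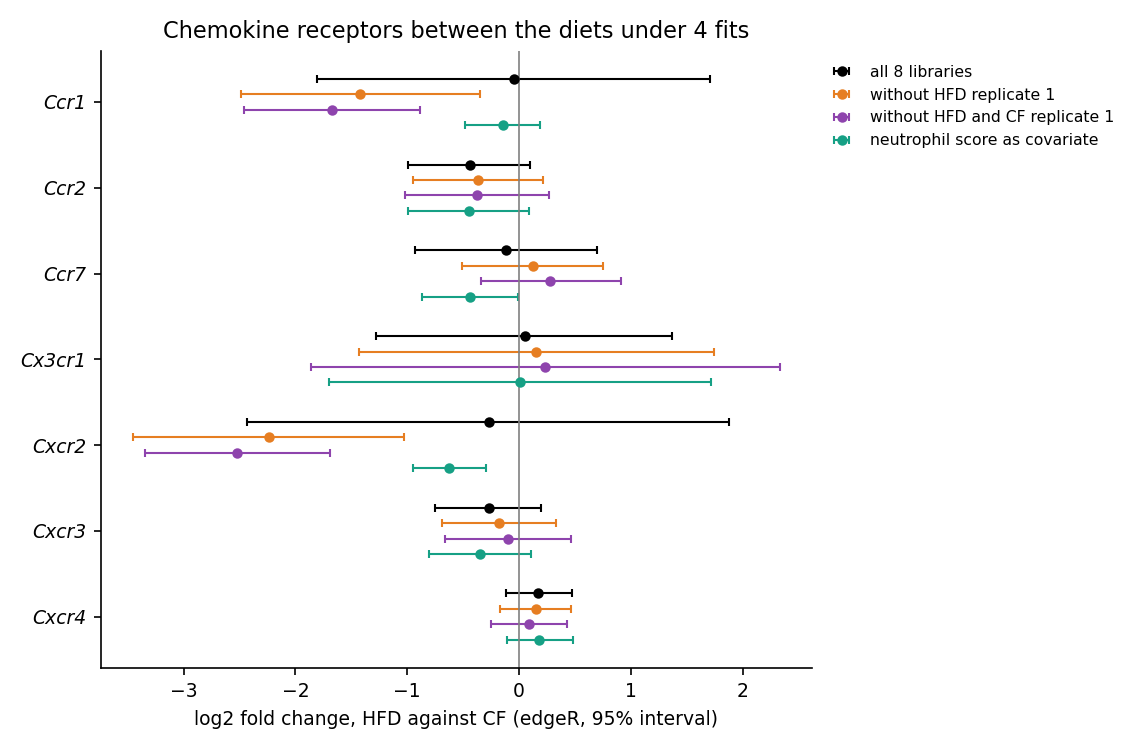
Log2 fold change of HFD against CF with its 95% interval (edgeR) for each receptor gene in 4 fits, namely all 8 libraries, without HFD 1, without HFD 1 and CF 1, and with the neutrophil score as covariate. The interval of Cxcr2 narrows from -2.43 to 1.88 with all libraries to -0.95 to -0.30 with the covariate, and that of Cxcr4 stays near zero in each fit.

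The genes most like each receptor gene in pattern were sought among 11066 protein-coding genes with a mean CPM of 1 or more, by Pearson r of log2 CPM over the 8 libraries. For Cxcr2 they were Il1f9 (r = 0.998), an IL-1 family cytokine, and Hdc (0.996), histidine decarboxylase. For Ccr1 they were Ndel1 (0.996) and Fes (0.994), a myeloid tyrosine kinase. Both pairs held without the 2 libraries farthest from the median, with r of 0.989 to 0.998. For Ccr7 Tigd2 (0.985) is given, for Cx3cr1 they were Stx3 (0.959) and Zfp605 (0.935), for Cxcr3 Ggcx (0.975) and Cd86 (0.947), and for Cxcr4 Lman1 (0.982) and Hadha (0.973). For Ccr2 they were Megf11 (0.958) and Met (0.949), and the likeness to Met rested on HFD 1 and HFD 3 (0.114 without them). Without the 2 libraries farthest from the median of the receptor gene, r also fell to 0.752 for Megf11, 0.815 for Cd86 and 0.827 for Zfp605. Hdc is also 1 of 8 mast cell and basophil genes in the table, whose summed CPM was 16.3 to 193 in HFD, highest in HFD 1, and 40.8 to 111 in CF. In HFD 1, 104 of the 193 CPM were from Hdc itself. Each r was among the highest of 11066 values over 8 libraries.

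Of 18 other chemokine receptors and atypical receptors, 10 were in the table and 0 were called, with 6 log2 fold changes above zero, 4 below and a median of 0.19. Ccr9, the receptor for Ccl25 and a marker of plasmacytoid DCs, was at 5.13, 12.4, 10.5 and 16.2 CPM in HFD 1 to 4. In CF 1 to 4 it was at 4.19, 4.80, 2.02 and 3.95. The diets were apart, with every HFD library above every CF library, where 6.16% of all genes had diets apart in either direction. The log2 fold change was 1.56 (SE 0.37), with an edgeR p of 0.0026 that was not past the threshold once adjusted over all genes (adjusted p = 0.14). It was called without HFD 1, its lowest HFD library (1.80, adjusted p = 0.026), by DESeq2 (1.56, adjusted p = 0.003) and with the neutrophil covariate (1.28, adjusted p = 0.027). Ccr9 was itself 1 of the 11 plasmacytoid DC genes in the table, all of which had a log2 fold change above zero. Of the 11, 7 had an edgeR p below 0.05 (8.56% of all genes had) and 0 were called. Their summed CPM was 407 to 926 in HFD, with 407 in HFD 1, and 500 to 567 in CF, with Runx2 at 151 CPM in HFD 1, 285 to 430 in the other HFD libraries and 218 to 263 in CF, and their part in the value of Ccr9 was not tested. Cmklr1, the chemerin receptor, had a log2 fold change of 1.56 (SE 0.75, adjusted p = 0.65).

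Xcr1, which marks cross-presenting conventional DCs and had the highest mean RPKM of the 10 (2.20), was at 0.642, 4.37, 13.6 and 8.11 CPM in HFD 1 to 4 and at 19.1, 10.7, 11.7 and 10.1 in CF 1 to 4. HFD 1 was lowest and CF 1 highest, and the log2 fold change was -0.95 (SE 0.68, adjusted p = 0.81). With the neutrophil covariate it was called at -2.01 (adjusted p = 0.0032). The 15 conventional DC genes, of which Xcr1 is 1, summed to 487 to 1210 CPM in HFD against 1150 to 1720 in CF, with 487 in HFD 1. Of these, 0 were called and 5 had an edgeR p below 0.05, where 8.56% of all genes had. All 5 were lower in HFD, namely the MHC class II genes H2-Aa, H2-Ab1 and H2-Eb1, their invariant chain Cd74, and Id2. Clec9a (-0.33), Batf3 (-0.79) and Zbtb46 (-0.34), which are closer to the conventional DC lineage, did not have a p below 0.05, and Itgax was at 0.54. Their part in the value of Xcr1 was not tested. Cxcr1, the close relative of Cxcr2, was at 1.03, 0.157, 0.0525 and 0.0243 CPM in HFD 1 to 4 and at 0.181, 0.922, 0.976 and 0.780 in CF 1 to 4. HFD 1 was on top and the other 3 HFD libraries were below every CF library, as for Cxcr2, at a mean of 0.345 RPKM (log2 fold change -1.21, SE 1.01, adjusted p = 0.84). Without HFD 1 and CF 1, the highest HFD and lowest CF library here too, the value was -3.53 (adjusted p = 0.036).

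Of 36 chemokine genes, 15 were in the table and 0 were called. Their median log2 fold change was -0.55, against 0.06 for all genes, and 10 were below zero. The 5 with p below 0.05 were all lower in HFD, namely Ccl22, Ccl4, Ccl3, Ccl5 and Cxcl9, where 8.56% of all genes had such a p. The number fell to 2 without HFD 2, without CF 1 or with scaling by library size alone. Ccl22, a ligand of Ccr4 that DCs secrete, was at 0.160, 0.252, 0.367 and 0.413 CPM in HFD 1 to 4 and at 2.48, 0.350, 1.54 and 2.78 in CF 1 to 4. CF 1, 3 and 4 were above every HFD library, CF 2 was among them, and the log2 fold change was -2.56 (SE 0.62, adjusted p = 0.14). It was called by DESeq2 (-2.59, adjusted p = 0.0037) and with the neutrophil covariate (-2.86, adjusted p = 0.023). Ccl4, a chemokine of activated leukocytes, was at 0.409 to 1.08 CPM in HFD against 0.945 to 1.96 in CF (-1.09, SE 0.38, adjusted p = 0.37). Ccl3 and Ccl5, which bind Ccr1, had values of -1.02 (adjusted p = 0.43) and -1.03 (adjusted p = 0.50), and Cxcl9, a Cxcr3 ligand, of -1.74 (adjusted p = 0.44). Ccl6, a Ccr1 ligand of myeloid cells and the chemokine gene with the most counts, was at 79.4, 19.7, 10.7 and 10.8 in HFD 1 to 4 and at 21.1, 54.9, 42.4 and 44.8 in CF 1 to 4. It thus had HFD 1 on top and HFD 3 and 4 at the bottom, like Ccr1 (-0.44, SE 0.66, adjusted p = 0.93). Without HFD 1 and CF 1, its highest HFD and lowest CF library, the value was -1.79 (adjusted p = 0.012). Cxcl12, the Cxcr4 ligand, was low at 0.362 to 4.81 CPM.

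All 43 genes of receptor signalling and desensitisation were in the table, 0 were called, and the median log2 fold change was 0.00 with 21 above zero and 22 below. Dock8, an exchange factor for Cdc42, had the most counts, with a range of 214 to 316 CPM over the HFD and 241 to 273 over the CF libraries. Gnai2, the main inhibitory G protein subunit of leukocytes, was at 170 to 256 and 167 to 221 CPM (log2 fold change 0.07, adjusted p = 0.96), and Grk2, a kinase that switches receptors off, at 105 to 169 and 143 to 153 (-0.11, adjusted p = 0.93). The 2 genes with the lowest p were both RGS proteins, which shorten G protein signals. These were the only 2 of the 43 with diets apart, where 6.16% of all genes had diets apart. Rgs1 was at 2.25, 3.21, 4.49 and 3.08 CPM in HFD 1 to 4 and at 8.29, 4.83, 5.70 and 7.36 in CF 1 to 4, with a log2 fold change of -1.01 (SE 0.26, adjusted p = 0.16). Rgs18 was at 38.8, 39.3, 35.1 and 41.7 in HFD 1 to 4 and at 34.3, 30.8, 30.5 and 32.0 in CF 1 to 4, a smaller difference in the other direction of 0.28 (SE 0.09, adjusted p = 0.33). Rgs1 was called by DESeq2 (-1.02, adjusted p = 0.013) and with the neutrophil covariate (-1.14, adjusted p = 0.012). Rgs2 had a value of -0.60 (SE 0.33, adjusted p = 0.74) and was called without HFD 1, its highest HFD library (-1.06, adjusted p = 0.025), and with the covariate (-0.50, adjusted p = 0.029).

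Of 30 genes of leukocyte adhesion and trafficking, 28 were tested and 0 called, with 18 above zero, 10 below and a median of 0.08. Tln1, the integrin activator talin, had the most counts, at 383 to 658 CPM in HFD against 434 to 554 in CF (-0.01, adjusted p = 1.00). Cysltr1, a leukotriene receptor, was at 3.47 to 5.76 CPM in HFD against 4.37 to 10.1 in CF (-0.78, SE 0.28, adjusted p = 0.41), and C5ar1, the receptor for the complement fragment C5a, at 2.40 to 9.47 and 5.76 to 26.0 (-1.43, SE 0.57, adjusted p = 0.50). Fpr1, a formyl peptide receptor of neutrophils, was at 41.7 CPM in HFD 1, 1.92 to 3.59 in the other HFD libraries and 3.77 to 11.5 in CF, the same order of groups as Cxcr2. Its log2 fold change was 0.37 (SE 0.99, adjusted p = 0.97) with all libraries and -2.18 (adjusted p = 0.0076) without HFD 1 and CF 1, which again were the highest HFD and the lowest CF library. Ptger4, a prostaglandin E receptor, was at 30.0 CPM in HFD 1, 49.3 to 59.1 in the other HFD libraries and 33.4 to 39.6 in CF (0.41, SE 0.20, adjusted p = 0.66). It was called without HFD 1, its lowest HFD library (0.59, adjusted p = 0.041).

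**Figure D5:**
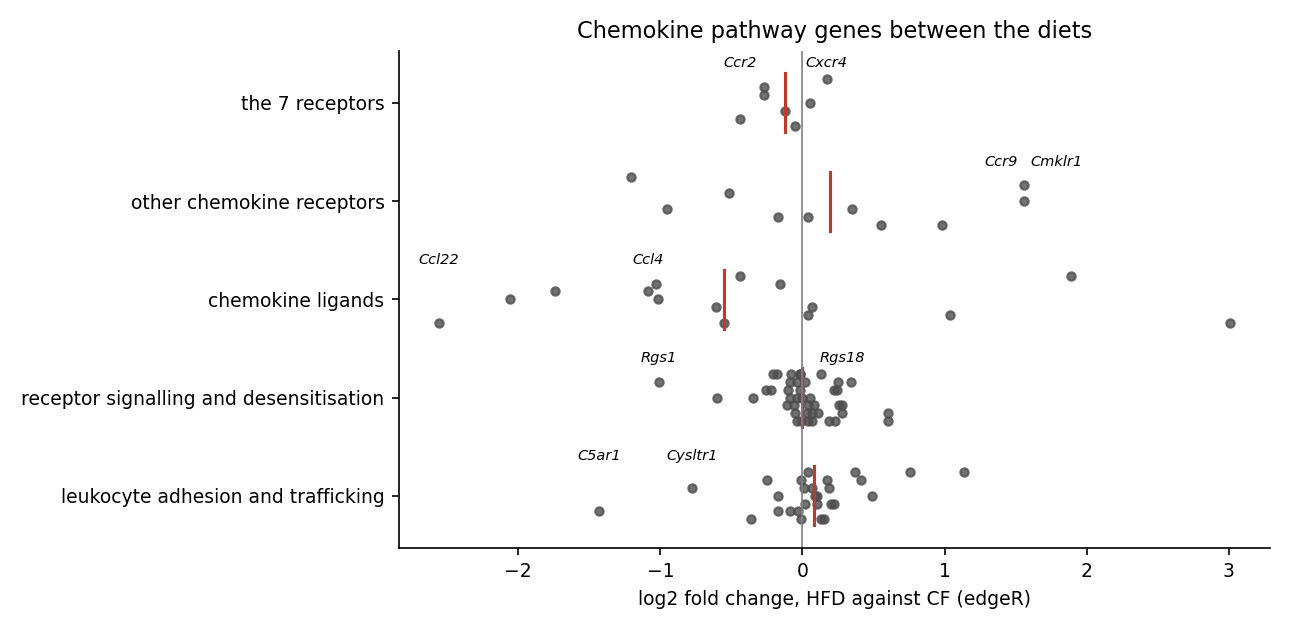
Log2 fold change of HFD against CF (edgeR, horizontal) of the 7 receptor genes and of the tested genes of 4 lists, 1 point a gene, spread vertically for legibility. Red lines are medians (-0.55 for the ligands, 0.00 for signalling), and the 2 genes with the lowest p in each row are named above their points.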

How the data were processed

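RNA of CDPs from 4 HFD and 4 CF preparations was amplified and sequenced as 75 bp read pairs. The authors deposited raw read counts per gene, made with HISAT2 on GRCm38 and StringTie on GENCODE genes. Totals per library were 28203651 to 48409689, and no gene had a highest count under 29. Whether the counts used strand is not given in the sources used here. Of 16119 genes, 16067 were matched to GENCODE vM21.

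Counts were compared in R 4.3.3 with edgeR 4.0.16 (filterByExpr, TMM, robust quasi-likelihood fit, diet as the only term), with Benjamini-Hochberg adjustment over 15837 genes and a threshold of 0.05. The authors used another model, Ballgown. Intervals are 95% intervals of the fitted coefficient. The prior count of log2 CPM was 2. Exact two-sided permutation tests ran over 70 splits, with 0.029 as the smallest p. If the 4 libraries of a diet share a source, p-values measure only the spread between these libraries. No 2 libraries of the same diet differed by as little as sampling noise. The same steps were tested on simulated counts.

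The 7 genes, the lists and the marker genes were chosen with earlier results of these data known. Genes named are the 7, the 2 most like each, the 2 with the lowest p of each pathway list, the most abundant of each list and the sort markers. Of these, 1 is not reported here. Other genes are named on the basis of their values. Alternatives tried were RLE factors, library size alone, DESeq2 1.42.0, limma 3.58.1 voom, other filters, protein-coding genes alone, the replicate number as block, a neutrophil score as covariate, and leaving out libraries. The score of 14 genes and the covariate with a library left out were added after seeing the data. Of the 75-base stretches of the 7 genes, at most 1.81% (Cxcr2) occur in another gene.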

Additional observations from a re-analysis of the deposited data

Results flagged for a closer look

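In 7 of the 82 groups of 4 libraries looked at, 1 library lay far from the other 3 on the log2 CPM scale, where chance gives about 1 in 20. None of the 14 groups of the 7 receptor genes was among them. Of the genes most like a receptor gene, Il1f9 was lowest in CF 1 at 2.19 (the other CF libraries at 3.98 to 4.32). Of the neutrophil and sort marker genes, S100a9 was lowest in CF 1 at 8.96 (10.63 to 10.90), Fcgr3 in CF 1 at 2.68 (4.51 to 4.75) and Ly6a in CF 1 at 0.51 (1.29 to 1.45). Cmklr1 was lowest in HFD 4 at -1.63 (0.99 to 1.20), Cysltr1 was highest in HFD 2 at 2.54 (1.82 to 1.88), and Runx2 was lowest in CF 3 at 7.77 (8.02 to 8.04).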

How the results depend on the processing

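Of the 27 alternative settings, 23 called none of the 7 receptor genes. 1 was called with the neutrophil covariate (Cxcr2, -0.63), 1 with the score of 14 genes (-0.64), 1 with the covariate and without HFD 3 (-0.73), and 2 without HFD 1 and CF 1 (Cxcr2 -2.52, Ccr1 -1.67), which were for both genes the highest HFD and the lowest CF library. Ccr2, Cxcr3 and Cxcr4 kept their sign in all 27. Scaling by library size alone moved the median of all genes from 0.06 to 0.25, and Ccr1 to 0.06 and Ccr7 to 0.11. With voom, Cx3cr1 was at -0.05, Ccr1 at -0.69 (adjusted p = 0.86) and Cxcr2 at -1.30 (adjusted p = 0.76). Without HFD 1 and CF 1, Ccr7 was at 0.28 in edgeR. With 1 library left out, Ccr1 ran from -1.42 to 0.27, Ccr7 from -0.36 to 0.12, Cx3cr1 from -0.26 to 0.48 and Cxcr2 from -2.24 to 0.06. With the covariate and 1 library left out, Cx3cr1 ran from -0.31 (without HFD 2) to 0.46, with -0.20 without HFD 4, -0.17 without CF 3 and -0.19 without CF 4.

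The count of 67 genes called over the whole table became 108 with library size alone, 567 with DESeq2, 0 with protein-coding genes alone, 662 with the neutrophil covariate, 663 with the score of 14 genes, and 388 without HFD 1 and CF 1. All 67 were lower in HFD, but 10 of the 108, 64 of the 567, 102 of the 662, 101 of the 663, 38 of the 388 and 34 of the 200 without HFD 1 were higher. It was 0 to 200 with 1 library left out (200 without HFD 1, 1 without HFD 2, 0 without HFD 3, 2 without HFD 4, 0 without CF 1, CF 2 or CF 3, and 154 without CF 4). With the covariate and 1 library left out it was 381, 545, 589 and 524 (without HFD 1, 2, 3 or 4) and 473, 504, 449 and 687 (without CF 1, 2, 3 or 4). The replicate numbers did not pair the libraries, since the deviations of same-numbered libraries had correlations of -0.44, -0.08, -0.23 and -0.18, and a fit with the replicate number as a block called 0 genes (911 had p below 0.05) and put Cx3cr1 at -0.07, Ccr1 at -0.86 and Cxcr2 at -1.66 (adjusted p = 1.0 for Ccr1 and Cxcr2).

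The other lists had 10 receptors, 15 ligands, 43 signalling genes and 28 adhesion genes tested. Of these, edgeR with diet as the only term and all libraries called 0 (0.423% of all genes). DESeq2 called 1 other chemokine receptor, 1 ligand and 1 signalling gene (3.58% of all genes). The covariate called 2 receptors, 1 ligand and 2 signalling genes (4.18% of all genes). Leaving out HFD 1 called 1 receptor, 1 signalling gene and 1 adhesion gene (1.26% of all genes). Leaving out HFD 1 and CF 1 called 2 receptors, 1 ligand, 2 signalling genes and 2 adhesion genes (2.45% of all genes). At 50 to 109 counts, Cxcr3 had the least depth of the 7.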
